A study of Mus musculus with 25 samples.

Results

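MHC class I and class II genes encode the machinery that shows peptides to T cells. The 10 genes described here, 5 of each class, are part of the 23116 genes in the deposited expression table, and all 10 were listed there. The class I genes were H2-K1 and H2-D1, which encode the classical heavy chains, B2m, which encodes their light chain β2-microglobulin, Tap1, which encodes a subunit of the transporter that carries peptides into the endoplasmic reticulum, and Nlrc5, which encodes the class I transactivator. The class II genes were H2-Aa and H2-Ab1, which encode the alpha and beta chains of I-A, H2-Eb1, which encodes the beta chain of I-E, Cd74, which encodes the invariant chain that occupies the class II groove until peptide loading, and Ciita, which encodes the class II transactivator. The members were given by name and not by any measured value.

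RNA-seq was performed on HSLAM cells, a hematopoietic stem cell population of mouse bone marrow sorted as LSK+ CD150+ CD48-. The 3 control libraries came from Cre-negative mice (Znf143 f/f x Rosa26ERT2-Cre-), hereafter Znf143 f/f, and the 3 libraries of deleted cells came from Cre-positive mice (Znf143 f/f x Rosa26ERT2-Cre+), hereafter Znf143 -/-. ZNF143 is a zinc finger transcription factor, and loxP sites flank exon 1 of its gene in both groups. The animals were C57BL/6 males aged 8 to 12 weeks and littermates, and both groups received tamoxifen at the middle dosage of the study for 10 days, so that the drug is shared and only the Cre transgene differs. Rosa26ERT2-Cre is broadly active across tissues, so deletion was not limited to blood cells. The study's methods name the deleted mice Znf143 -/-, whereas the genotype label of these samples names CTCF, and the transcript of Znf143 was used as the check.

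Class I molecules are made by nearly every nucleated cell and present peptides from the cytosol, which the immunoproteasome cuts and TAP imports. Class II molecules are best known from B cells, dendritic cells and macrophages and present peptides from endosomes, where proteases degrade the invariant chain and H2-DM exchanges its last fragment for peptide. Promoters of both classes carry the SXY module, in which RFX binds the X box and NF-Y binds the Y box. NLRC5 and CIITA do not bind DNA themselves but are recruited to this module, NLRC5 at class I and CIITA at class II genes.

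The Y box is an element that both classes share, and the stretches below mark the letters CTGATTGG near the transcription start of chain genes of both classes. In what follows, Y box names these letters alone. Whether they are the Y box of the SXY module in each gene was not tested. RefSeq promoter windows, from 250 bases before the start to 50 after it, were found for 6 of the 10 members (H2-K1, H2-D1, B2m, Tap1, H2-Aa and H2-Eb1). The sequences are from GRCm38.p6 and read 5′ to 3′ on the strand of the gene, with the letters CTGATTGG, or CCAATCAG where they run on the other strand, in capitals.
H2-Aa, 120 bases before its start, chr17:34287824-34287943, minus strand: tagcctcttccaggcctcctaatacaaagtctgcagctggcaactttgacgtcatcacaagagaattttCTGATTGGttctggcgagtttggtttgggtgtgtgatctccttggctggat
H2-Eb1, 120 bases before its start, chr17:34305747-34305866, plus strand: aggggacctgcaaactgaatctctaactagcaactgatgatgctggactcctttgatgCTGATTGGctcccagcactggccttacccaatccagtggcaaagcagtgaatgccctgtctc
H2-K1, 120 bases ending just past its start, chr17:34000329-34000448, minus strand: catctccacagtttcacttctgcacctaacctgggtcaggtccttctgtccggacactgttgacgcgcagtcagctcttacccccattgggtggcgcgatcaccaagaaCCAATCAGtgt
H2-D1, 30 bases around its Y box, chr17:35263030-35263059, plus strand: gattccaggagCCAATCAGcgtcgccgcgg
Positions are counted from the transcription start, with negative numbers before it. The marked letters began at -51 in H2-Aa and at -62 in H2-Eb1, on the strand of the gene in both. In H2-D1 they began at -53 of the RefSeq start on the opposite strand, a stretch that GENCODE M21 places within the first exon of H2-D1. In H2-K1 they began at -6 of 1 RefSeq start, also on the opposite strand. A second RefSeq start of H2-K1 put the same letters at base 9 of the transcript. The Tap1 window held them at -222, on the opposite strand. These letters were present on either strand in 4.1% of all 32851 promoter windows. The letters AGNNACNGA of an X box core, searched on both strands, began at -92 in H2-Eb1 and at base 3 on the opposite strand in B2m, and occurred in 17.7% of all windows. The letters GAAANNGAA of an interferon-stimulated response element began at -139 in B2m and occurred in 8.56% of all windows. None of the 6 members' windows held the ZNF143 letters CCCANNATG or ACTACANNT, searched on both strands, which occurred in 5.01% and 4.16% of all windows. The absence of a match says only that these letters are not in these windows.

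The libraries held 38643255 to 57895793 fragments on genes. Levels are given as rescaled FPKM, the deposited values (fragments per length of gene and size of library) divided by 1 size factor per library, so that they are per gene length and can be compared between genes. The Znf143 transcript, listed as Zfp143, was 3.07 to 4.43 FPKM in Znf143 f/f and 0.155 to 0.298 FPKM in Znf143 -/-, and its log2 fold change was -3.50 (SE 0.239, adjusted p = 0.00100, limma). Libraries 1 and 3 of Znf143 f/f lay closer to each other than to library 2, with a chi-square of 2.77 per degree of freedom over their fragments against 29.6 and 26.2. Libraries 2 and 3 of Znf143 -/- likewise differed by 3.02 per degree of freedom, against 28.5 and 22.8 for their distance to library 1. Both close pairs differed by more than sampling noise, which gives a value near 1, and were kept as separate samples. Since library 2 of Znf143 f/f and library 1 of Znf143 -/- stood apart, values that rest on them are also given without them. Across all 19279 genes tested, 5.99% had an adjusted p under 0.05.

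Class I heavy and light chains were among the most abundant transcripts of HSLAM cells in both genotypes. B2m had the second highest mean level of all 23116 genes, and H2-K1 and H2-D1 ranked at 40 and 43. None of the 5 class I members passed the limma test between genotypes, either adjusted or with an unadjusted p under 0.05 (24.2% of all genes tested), and none had libraries that did not overlap between the groups (30.7% of all genes tested).

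H2-K1 (chr17:33996017-34000347, minus strand) was measured at 1196, 1037 and 1126 FPKM in the 3 Znf143 f/f libraries and at 982, 1120 and 1066 FPKM in the 3 Znf143 -/- libraries. The groups overlapped, and the lowest and the highest library differed by less than 1.25 times. Its log2 fold change of Znf143 -/- against Znf143 f/f was -0.08 (95% interval -0.41 to 0.24, adjusted p = 0.753).
H2-D1 (chr17:35262730-35267499, plus strand) was measured at 1158, 933 and 1066 FPKM in Znf143 f/f and at 951, 1161 and 1076 FPKM in Znf143 -/-, with a log2 fold change of 0.02 (95% interval -0.35 to 0.38, adjusted p = 0.966). The level of H2-K1 over that of H2-D1 was between 0.965 and 1.11 in all 6 libraries, so that these neighbors in the order of levels did not differ beyond their spread. H2-K1, H2-D1 and the H2-Q genes are close copies of each other, and how fragments were divided between them is uncertain.

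B2m (chr2:122147686-122153083, plus strand) reached 10996, 10571 and 10667 FPKM in Znf143 f/f and 11205, 9802 and 9492 FPKM in Znf143 -/-. Library 1 of Znf143 -/- was the highest of all 6 and the other two were the lowest, so that the groups overlapped at a log2 fold change of -0.08 (95% interval -0.78 to 0.61, adjusted p = 0.895). The interval is wider than the libraries of B2m alone would give, since the fit takes part of its spread from genes of like abundance. B2m alone gave 0.823% to 0.942% of all fragments on genes in a library.

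Tap1 (chr17:34187553-34197225, plus strand), whose product pairs with that of Tap2 to form the peptide transporter, was measured at 38.9, 30.1 and 36.9 FPKM in Znf143 f/f and at 35.8, 42.9 and 41.5 FPKM in Znf143 -/-. Its log2 fold change was 0.18 (95% interval -0.12 to 0.49, adjusted p = 0.423). Tap2 was measured at 51.9, 42.9 and 47.5 FPKM in Znf143 f/f and at 38.5, 43.1 and 41.4 FPKM in Znf143 -/-, with a log2 fold change of -0.21 (adjusted p = 0.256). The level of Tap1 over that of Tap2 within a library was 0.749, 0.703 and 0.777 in Znf143 f/f and 0.930, 0.995 and 1.00 in Znf143 -/-. The 2 groups of ratios did not overlap, and the exact permutation test allows no p under 0.10 with 3 against 3 samples. Tap2 was added after its values were seen, and among single genes tested 30.7% had libraries that did not overlap. Tap1 lies head to head with Psmb9 and shares 212 bases with it on the opposite strand. Psmb9 was measured at up to 120 FPKM and the library kit does not mark strand, so fragments in the shared bases cannot be assigned by strand.

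Nlrc5 (chr8:94434356-94527272, plus strand) was low beside the genes it is known to activate, at 3.44, 2.72 and 3.02 FPKM in Znf143 f/f and 2.20, 2.80 and 2.56 FPKM in Znf143 -/-. The groups overlapped at 2.72 and 2.80 FPKM, and the log2 fold change was -0.27 (95% interval -0.62 to 0.08, adjusted p = 0.319).

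**Figure D1:**
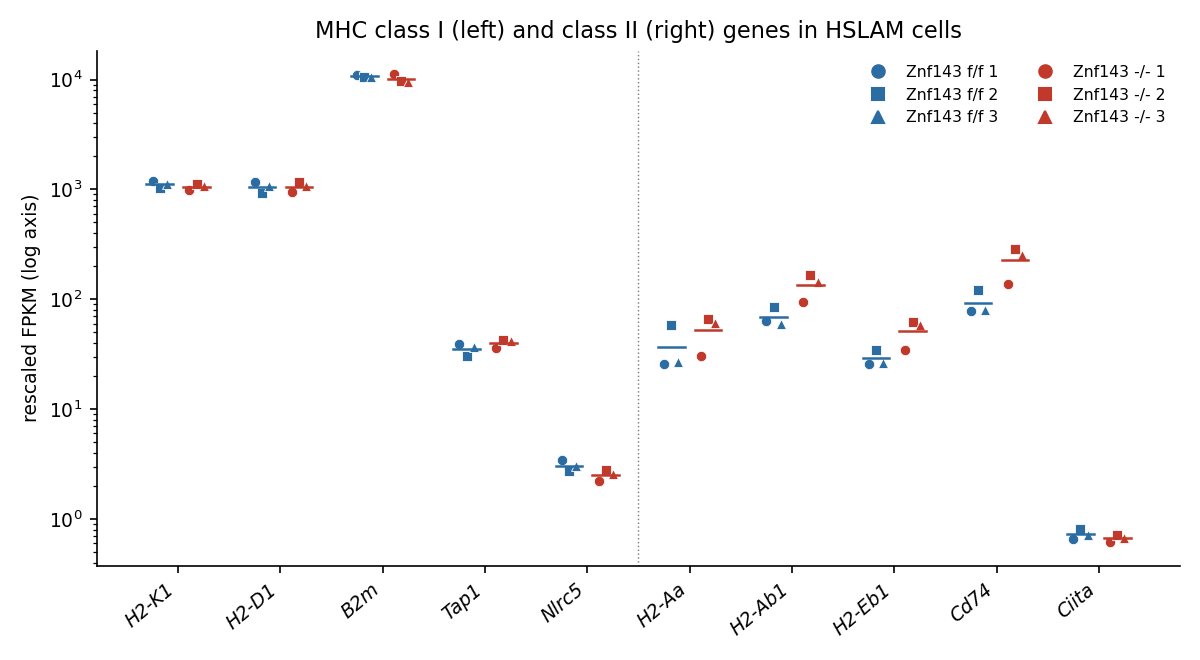
Rescaled FPKM of the 10 MHC genes on a log axis, 1 point per library and a line at each group mean of 3 libraries, with Znf143 f/f in blue and Znf143 -/- in red. The 5 class I genes on the left have groups that overlap, and H2-Ab1 and Cd74 on the right are the members whose groups do not.

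The class II chains and the invariant chain lay between 25.6 and 285 FPKM over all libraries, and as fitted their levels in Znf143 -/- were 1.45 times (H2-Aa) to 2.36 times (Cd74) those in Znf143 f/f. None of the 5 class II members passed an adjusted p of 0.05. H2-Ab1 and Cd74 came nearest and had libraries that did not overlap, and Ciita was at the same low level in both groups within its spread. Without adjustment, 3 of the 5 had a p under 0.05 (H2-Ab1, H2-Eb1 and Cd74), all with higher levels in Znf143 -/-, against 12.4% of all tested genes. Libraries of 2 of the 5 did not overlap, both higher in Znf143 -/-, against 15.4% of all tested genes. With voom on the recovered fragments, H2-Ab1 and Cd74 passed (adjusted p = 0.0452 and 0.0434), beside 7.27% of all genes.

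H2-Aa (chr17:34282744-34287823, minus strand) was measured at 25.6, 58.8 and 26.8 FPKM in Znf143 f/f and at 30.6, 66.6 and 60.4 FPKM in Znf143 -/-. Library 2 of Znf143 f/f and library 1 of Znf143 -/- crossed, so that the groups overlapped over most of their range. The log2 fold change was 0.54 (95% interval -0.45 to 1.52, adjusted p = 0.479).

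H2-Ab1 (chr17:34257689-34269419, plus strand), the partner chain of H2-Aa, was measured at 63.7, 84.3 and 60.0 FPKM in Znf143 f/f and at 94.3, 165 and 142 FPKM in Znf143 -/-. All 3 Znf143 -/- libraries were above all 3 Znf143 f/f libraries. The means were 69.3 ± 13.1 and 134 ± 36.1 FPKM (SD, n = 3 each), with a log2 fold change of 0.93 (95% interval 0.37 to 1.48) and an adjusted p of 0.0672 by limma.

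H2-Eb1 (chr17:34305867-34316674, plus strand) was measured at 25.8, 34.9 and 26.5 FPKM in Znf143 f/f and at 34.5, 61.4 and 57.9 FPKM in Znf143 -/-. The groups touched, with library 2 of Znf143 f/f at 34.9 FPKM and library 1 of Znf143 -/- at 34.5 FPKM. The log2 fold change was 0.79 (95% interval 0.21 to 1.36, adjusted p = 0.110). The C57BL/6 strain makes no I-E alpha chain, so that this beta chain has no usual partner in these mice. Gm20513 shares 2204 bases with H2-Eb1 on the opposite strand but was listed at no more than 0.638 FPKM.

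Cd74 (chr18:60803848-60812652, plus strand) was the most abundant class II member, at 78.5, 122 and 79.0 FPKM in Znf143 f/f and 138, 285 and 255 FPKM in Znf143 -/-. The groups did not overlap. The means were 93.1 ± 24.9 and 226 ± 78.0 FPKM (SD, n = 3 each), with a log2 fold change of 1.24 (95% interval 0.50 to 1.98) and an adjusted p of 0.0669 by limma.

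Ciita (chr16:10480059-10528418, plus strand) was the lowest of the 10 members, at 0.663, 0.808 and 0.707 FPKM in Znf143 f/f and 0.613, 0.720 and 0.665 FPKM in Znf143 -/-, from 134 to 209 fragments per library. The groups overlapped, and the log2 fold change was -0.11 (95% interval -0.53 to 0.32, adjusted p = 0.764). A stretch of 25888 bases of the Ciita locus is shared with Dexi on the opposite strand, which was measured at 10.7 to 14.7 FPKM. The part of Dexi fragments in the Ciita values was not tested.

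**Figure D2:**
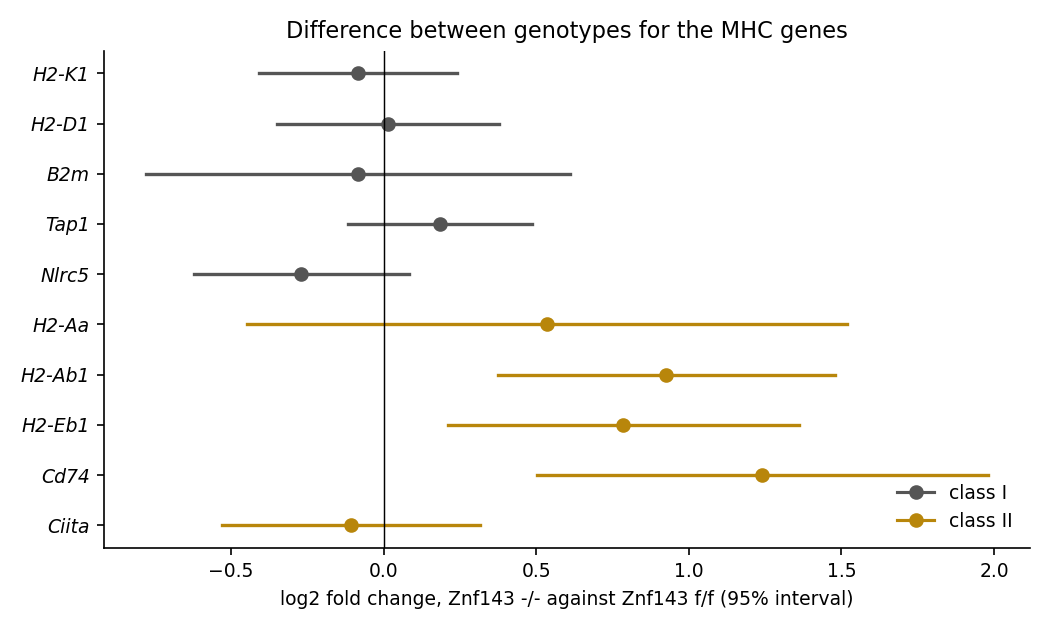
Log2 fold change of Znf143 -/- against Znf143 f/f for each member, with its 95% interval, from the limma fit over 19279 genes. Intervals of H2-Ab1, H2-Eb1 and Cd74 lie above 0, and those of the 5 class I members, H2-Aa and Ciita include 0.

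The median log2 fold change was -0.08 over the 5 class I members and 0.79 over the 5 class II members, beside 0.01 over all genes tested. With FPKM as deposited the class I median was 0.03, so its sign depends on the scaling, and the class II median was 0.90. The difference between the classes was not tested. Within a library, the summed level of H2-Aa, H2-Ab1 and H2-Eb1 was 4.88%, 9.04% and 5.17% of the summed level of H2-K1 and H2-D1 in Znf143 f/f. In Znf143 -/- it was 8.25%, 12.8% and 12.2%, so that 1 library of each genotype lay in the range of the other.

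The class II chains varied together among libraries of the same genotype. In library 2 of Znf143 f/f the levels of H2-Aa, H2-Ab1, H2-Eb1 and Cd74 were 2.25, 1.36, 1.33 and 1.55 times the mean of the other two libraries. In library 1 of Znf143 -/- they were 0.482, 0.613, 0.577 and 0.509 times the mean of the other two. The same libraries were at 0.893 and 0.898 times the others for H2-K1 and at 0.839 and 0.850 times for H2-D1. The libraries that stood apart over all genes were thus those that brought the 2 genotypes together for class II.

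Without these 2 libraries, 4 of 5 class II members passed the test, with log2 fold changes of 1.27 for H2-Aa, 1.31 for H2-Ab1, 1.19 for H2-Eb1 and 1.77 for Cd74, and so did Tap1 of the class I members (0.15). In that comparison 42.4% of all genes tested passed, since only the close pairs remained. The comparison was chosen after the data were seen. Whether the libraries of a close pair share a sort or a preparation is not given, and if they do, its p-values are too small. With each close pair averaged instead, 0 of the 5 class II members passed, beside 47 of 19317 genes tested. Without library 1 of Znf143 -/- alone, H2-Ab1, H2-Eb1 and Cd74 passed beside 11% of all genes. Without library 2 of Znf143 f/f alone, Cd74 passed beside 11.9%.

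**Figure D3:**
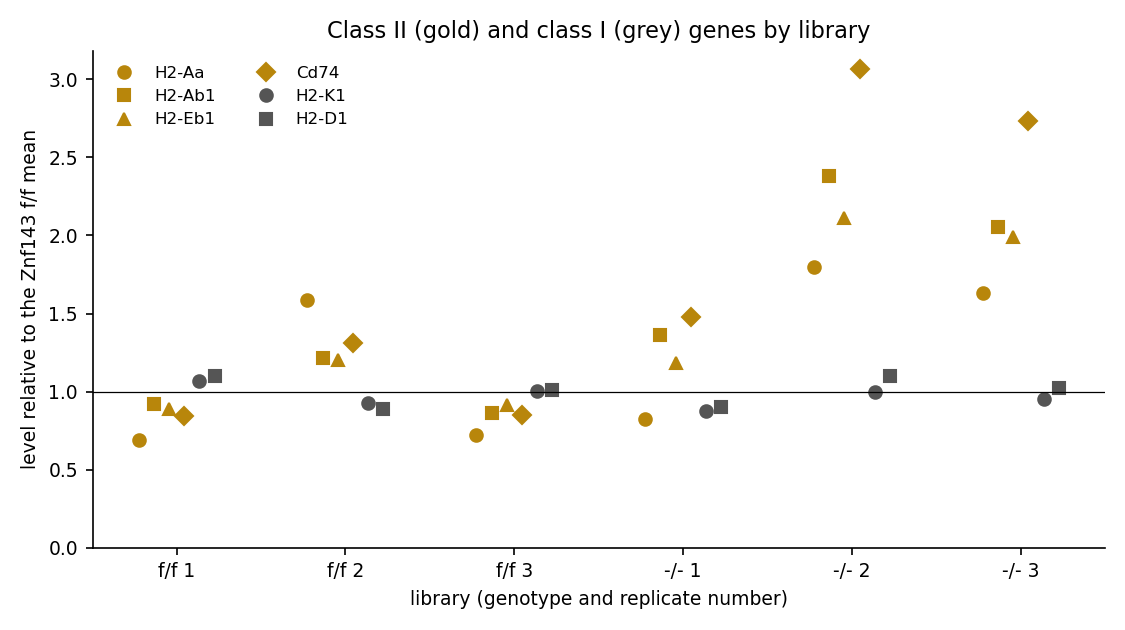
Level of 4 class II genes (gold) and 2 class I genes (grey) in each library, divided by the mean of the 3 Znf143 f/f libraries (horizontal line at 1). Class II genes are highest in libraries 2 and 3 of Znf143 -/-, and within its genotype library 2 of Znf143 f/f is the highest and library 1 of Znf143 -/- the lowest for all 4.

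Ratios among the class II members were taken within each library, and their differences between genotypes were not tested. The level of Cd74 over that of H2-Ab1 was 1.23, 1.45 and 1.32 in Znf143 f/f and 1.46, 1.73 and 1.79 in Znf143 -/-, a narrow separation. H2-Aa was at 0.402, 0.698 and 0.446 times H2-Ab1 in Znf143 f/f and at 0.325, 0.404 and 0.424 times in Znf143 -/-, with overlap. H2-Eb1 kept within 0.365 to 0.442 times H2-Ab1 in all 6 libraries.

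The genes whose pattern over the 6 libraries was most like that of H2-K1, by root mean square distance of centered log2 levels among 12528 genes, were Eef2k (0.0193), Cers5 (0.0237) and Cltc (0.0238). H2-D1 was at rank 298 with a distance of 0.0654. For H2-Aa the nearest genes were Pdgfb (0.122), Ctse (0.131) and Gm36298 (0.145). Ctse, which encodes the endosomal protease cathepsin E, was measured at 67.0, 116 and 67.1 FPKM in Znf143 f/f and 68.4, 156 and 139 FPKM in Znf143 -/-. H2-Eb1, H2-Ab1 and Cd74 were at ranks 36, 68 and 200 for likeness to H2-Aa.

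Of the remaining genes of the class II pathway, 2 endosomal proteases and 1 H2-DM beta chain were higher in Znf143 -/-. Of 12 genes listed, 10 were in the table and 9 were tested, and 3 rose, 0 fell and 6 did not pass, with a median log2 fold change of 0.24. The background was 3% of all genes called higher and 2.99% called lower.
Ctss, which encodes cathepsin S, the protease that trims the invariant chain to its last fragment, was measured at 12.3, 13.2 and 13.7 FPKM in Znf143 f/f and at 58.8, 43.2 and 45.5 FPKM in Znf143 -/-. It rose by 1.89 on the log2 scale (SE 0.131, adjusted p = 0.00104), and library 1 of Znf143 -/-, the lowest for the class II chains, was the highest for Ctss.
Lgmn, which encodes the asparaginyl endopeptidase legumain, was measured at 0.694, 0.725 and 0.643 FPKM in Znf143 f/f and at 6.00, 4.82 and 5.01 FPKM in Znf143 -/-. It rose by 2.77 on the log2 scale (SE 0.141, adjusted p = 0.000415). H2-DMb2 was measured at 0.973, 1.09 and 1.496 FPKM in Znf143 f/f and at 2.33, 3.41 and 3.39 FPKM in Znf143 -/- and rose by 1.29 on the log2 scale (SE 0.222, adjusted p = 0.0243). Its call was lost on leaving out library 1 or 3 of Znf143 f/f or library 2 or 3 of Znf143 -/- (adjusted p = 0.0527 to 0.124). The abundant chains of the same peptide exchanger, H2-DMa at 149 to 174 FPKM and H2-DMb1 at 35.2 to 47.0 FPKM over all 6 libraries, had log2 fold changes of 0.01 and -0.03 (adjusted p = 0.958 and 0.907). H2-DMb1 and H2-DMb2 are close copies, and how fragments were divided between them is uncertain. Ifi30, which encodes the thiol reductase of endosomes, was higher in every Znf143 -/- library (12.2 to 17.7 FPKM) than in every Znf143 f/f library (7.37 to 11.9 FPKM), with an adjusted p of 0.195. Such a separation was found for 15.4% of all genes tested.

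The DNA-binding factors of the SXY module did not pass the limma test, with 0 of 7 called (2 with an unadjusted p under 0.05 against 24.2% of all genes, 0 with voom) and a median log2 fold change of -0.16. Rfxank and Rfx5, which encode subunits of RFX, had log2 fold changes of -0.41 (adjusted p = 0.0843) and -0.46 (adjusted p = 0.191). Rfxank was at 5.47 to 6.52 FPKM in Znf143 f/f and at 4.13 to 4.60 FPKM in Znf143 -/-, and the groups did not overlap (30.7% of all genes tested). The most abundant genes of this list were Rfxap (log2 fold change 0.13) and Nfyc (0.18), which encode further subunits of RFX and NF-Y.

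**Figure D4:**
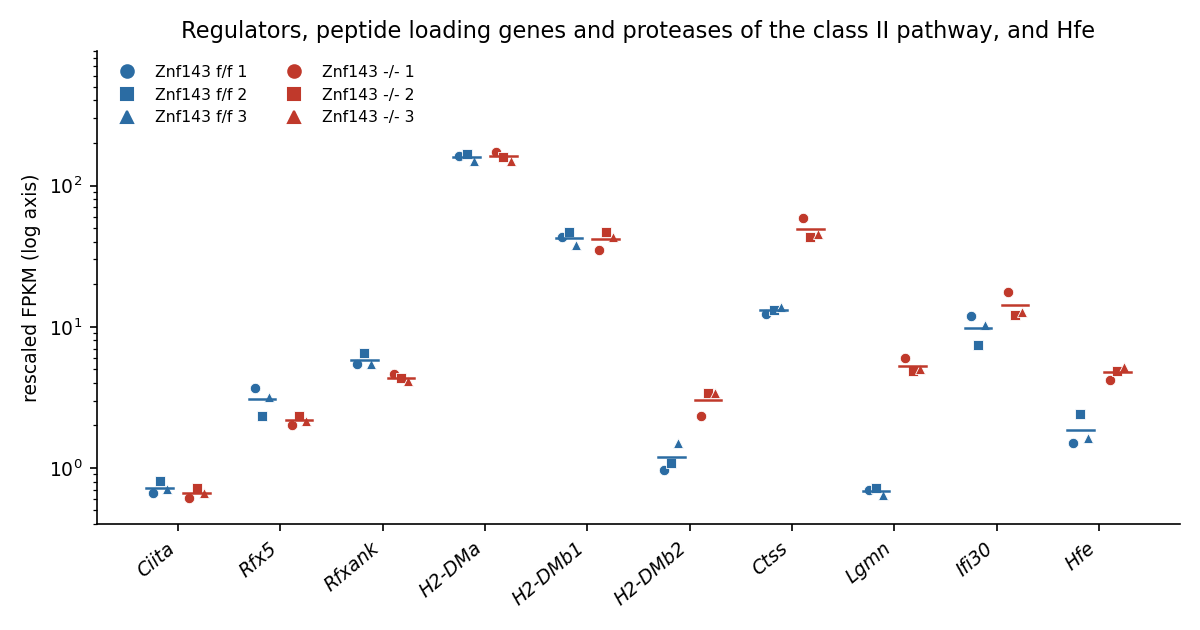
Rescaled FPKM on a log axis of Ciita, 2 RFX genes, the H2-DM chains, endosomal enzymes of the class II pathway and Hfe, 1 point per library with a line at each group mean. Ctss, Lgmn, H2-DMb2 and Hfe passed the test and the others did not.

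Among the other class I heavy chains and class I-like molecules, 14 of 17 genes listed were tested. Of these, 1 rose, 0 fell and 13 did not pass, beside 3% of all genes called higher and 2.99% called lower. The median log2 fold change was 0.11. An unadjusted p under 0.05 was found for 5 (24.2% of all genes tested), and voom called 2 (7.27%). Libraries of 6 did not overlap (30.7%), 4 of them higher in Znf143 -/- (15.4%). The gene that rose was Hfe, which encodes a class I-like molecule that pairs with β2-microglobulin, binds the transferrin receptor and acts in iron uptake, not in peptide presentation. It was measured at 1.499, 2.40 and 1.64 FPKM in Znf143 f/f and 4.22, 4.85 and 5.21 FPKM in Znf143 -/-, a log2 fold change of 1.34 (SE 0.195, adjusted p = 0.0144). The call was lost on leaving out any of the same 4 libraries (library 1 or 3 of Znf143 f/f, library 2 or 3 of Znf143 -/-), with adjusted p = 0.0540 to 0.0831. The 2 most abundant genes of the list, H2-T23 at 165 to 252 FPKM and H2-Q6 at 126 to 203 FPKM over all libraries, had log2 fold changes of -0.26 and 0.16 and did not pass. H2-T10, singled out after its values were seen, had a larger difference than Hfe but missed the threshold, at 2.19, 7.00 and 2.98 FPKM in Znf143 f/f and 9.62, 17.5 and 16.4 FPKM in Znf143 -/- (log2 fold change 1.94, adjusted p = 0.0538).

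Genes that cut, import and load class I peptides did not pass either, with 0 of 12 called by limma (2 with an unadjusted p under 0.05 against 24.2% of all genes, 0 with voom) and a median log2 fold change of 0.03. Psmb8, which encodes a subunit of the immunoproteasome, was measured at 304 to 333 FPKM over all libraries (log2 fold change 0.02), and Psme2, which encodes a subunit of the proteasome activator PA28, had a log2 fold change of 0.03.

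Interferon-gamma is the best known inducer of both classes. Receptors, kinases and transcription factors of interferon signaling, not of interferon-gamma alone, were looked at as a list. None of 14 was called by limma (6 had an unadjusted p under 0.05 against 24.2% of all genes, and voom called 2 against 7.27% of all genes), with a median log2 fold change of 0.14. The 6 genes were Irf8 (log2 fold change 0.80), Ifngr2 (0.69), Ifnar1 (0.44), Stat2 (0.39), Irf9 (0.33) and Ifnar2 (0.31), all higher in Znf143 -/-. Libraries of 8 of the 14 did not overlap (30.7% of all genes tested), 6 of them higher in Znf143 -/- (15.4%). Ifngr1 and Jak1, the most abundant, had log2 fold changes of 0.01 and -0.22. Of 14 interferon-induced genes, 7 rose, 0 fell and 7 did not pass, with a median log2 fold change of 0.78, beside 3% of all genes called higher. Those that rose were Irf7 (1.96), Ifit3 (1.97), Ifit1 (1.42), Oas2 (1.34), Gbp3 (0.91), Usp18 (0.83) and Ifi44 (0.76). Isg15 and Igtp, the most abundant of that list, had log2 fold changes of 0.56 and 0.23 and did not pass. Gbp2 had the lowest log2 fold change of that list (-0.04, adjusted p = 0.777). The remaining genes not called, Gbp4 (0.81), Iigp1 (0.57), Gbp7 (0.22) and Irgm1 (0.14), had positive log2 fold changes. The part of interferon signaling in the class II levels was not tested.

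**Figure D5:**
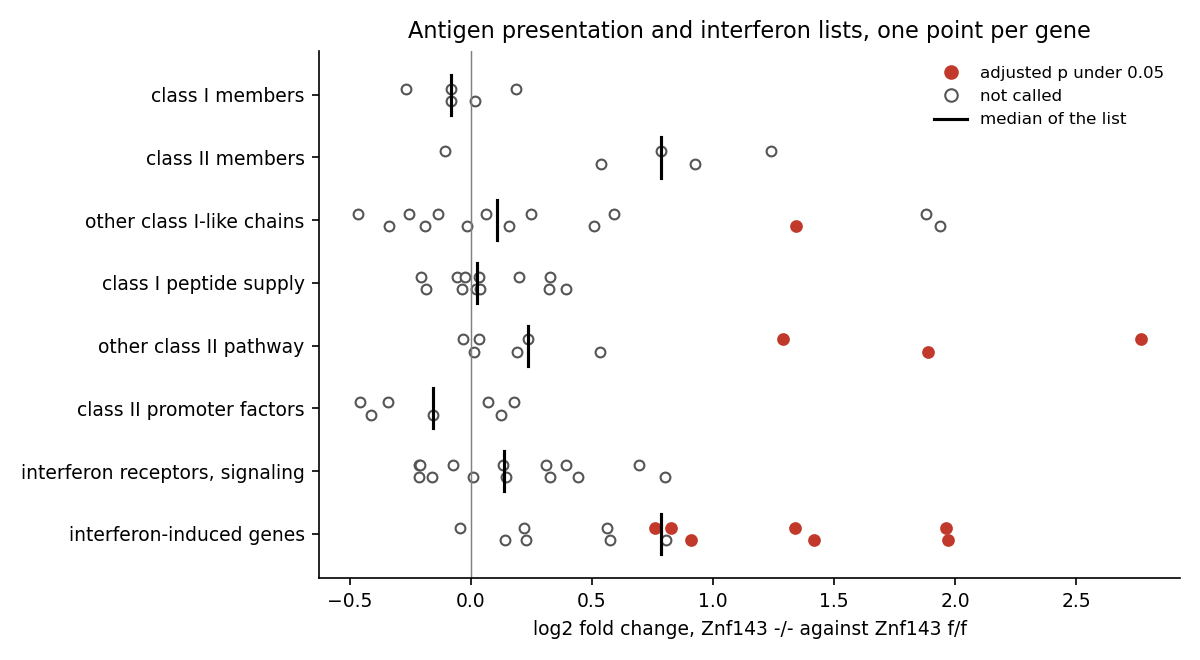
Log2 fold change of Znf143 -/- against Znf143 f/f of each tested gene in the antigen presentation and interferon lists, with a bar at the median of each list. Filled points have an adjusted p under 0.05; they number 0 of 5 and 0 of 5 for the class I and class II members, 3 of 9 for the other class II pathway genes and 7 of 14 for the interferon-induced genes.

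Markers of other blood cell types were measured beside the class II genes, and in bulk RNA fewer cells of a type and less RNA per cell cannot be told apart. For the counts below, the background over all genes tested was 3% called higher and 2.99% called lower. An unadjusted p under 0.05 was found for 24.2% of all genes, and voom called 7.27%. Defining B cell genes were at or near 0, with Cd79a and Ebf1 at no more than 6 and 7 fragments in a library, and the 1 tested gene of that list did not pass. Cd79b, the exception, was at 38.9 to 48.4 FPKM in the 6 libraries and its log2 fold change was -0.05. Of the dendritic cell list, 1 of 5 tested genes rose. Itgax was at no more than 9 fragments in a library, Zbtb46 was not called (log2 fold change -0.40), and Xcr1 rose from 0.0864 to 0.169 FPKM to 1.03 to 1.63 FPKM (log2 fold change 2.53, adjusted p = 0.00509). The summed level of the list was 0.924 to 1.33 FPKM in Znf143 f/f and 1.81 to 2.45 FPKM in Znf143 -/-, and without Xcr1 it was 0.778 to 1.16 FPKM and 0.771 to 0.823 FPKM. Batf3, Clec9a and Ccr7 were not called (log2 fold changes -0.36, 0.06 and 0.54). Of the monocyte and macrophage list, 1 of 5 tested genes rose, Csf1r, from 0 to 0.0139 FPKM to 0.185 to 0.262 FPKM. Its most abundant genes were Lyz2 (log2 fold change -0.38) and Cd68 (0.21), neither called, and its summed level, most of which is Lyz2, was 547 to 587 FPKM in Znf143 f/f and 435 to 453 FPKM in Znf143 -/-. The median log2 fold change of the 5 tested genes was 1.08, 4 had an unadjusted p under 0.05 and voom called 3. Ly6c2 (1.26, adjusted p = 0.110) and Ccr2 (1.08, adjusted p = 0.0693) were higher in every Znf143 -/- library than in every Znf143 f/f library, at levels of no more than 1.18 and 0.361 FPKM. Such a separation was found for 15.4% of all genes tested. The 2 tested T cell genes, Cd3d and Cd4, were not called, and the list summed to less than 1 FPKM in every library. Of 6 neutrophil genes, 4 rose (Elane, S100a8, Ngp and Camp), and the list summed to 41.0 to 79.0 FPKM in Znf143 f/f and 121 to 150 FPKM in Znf143 -/-. S100a9 and Mpo, also in that list, had log2 fold changes of 0.93 and 1.46 and did not pass. The part of such cells in the class II levels was not tested.

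Markers of the sorted population were present in all libraries. Of 10 stem cell genes, Ly6a rose (log2 fold change 1.13), Mecom fell by 0.55 on the log2 scale and 8 did not pass. The background was again 3% of all genes called higher and 2.99% called lower. Cd48, whose product the gate excludes, rose from 9.56 to 11.1 FPKM to 19.6 to 20.4 FPKM. The gate does not use the products of Flt3 and Cd34. Flt3 rose by 1.59 on the log2 scale, and Cd34, at 29.1 to 31.6 FPKM over all libraries, had a log2 fold change of 0.01. Over the 3 Znf143 -/- libraries, Cd48 was at 19.6, 20.4 and 19.7 FPKM and Flt3 at 16.0, 15.5 and 15.8 FPKM. Their part in the class II levels was not tested.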

How the data were processed

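Poly(A) RNA-seq libraries of sorted HSLAM cells, 3 per genotype as given in the sample titles, were analyzed; the ChIP-seq and HiC samples were not analysed here. RNA with a high integrity score was amplified with a SMART-Seq v4 kit and made into libraries with Nextera XT, which does not mark strand. For the authors' processing, adaptors were removed by TrimGalore, STAR was run against GRCm38, and FeatureCounts output was normalized in DESeq2; the annotation used for counting is not given in the sources used here. The values the authors deposited are FPKM in a table of 23116 genes. FPKM times gene length gave whole fragments for 99.986% of values (within 0.05 of a whole number), and the divisor of the third Znf143 -/- library was that of the second, 48378188, whereas 57895793 fragments lay on its genes. The deposited FPKM were therefore divided by median-of-ratios size factors. Genotypes were compared with limma 3.58.1 in R 4.3.3 (variance trend, no covariate) on log2(FPKM + 0.1) for genes with a mean of at least 0.1, with Benjamini-Hochberg adjustment over 19279 genes and a threshold of 0.05. Fold changes on this scale understate those of low genes. The exact permutation test (two-sided) of single genes could not go below 0.10. The pipeline was tested on simulated data.

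Members and lists were chosen with earlier results of these data known. Genes named were the members, Zfp143, called genes of each list, the 2 most abundant genes per list and the 3 genes nearest in pattern to H2-K1 and H2-Aa. H2-T10, Tap2, Ifi30, Rfx5, Rfxank, Cd79a, Ebf1, Itgax, Batf3, Clec9a, Ccr7, Ly6c2, Ccr2 and Mpo were added after their values were seen. So were Ifngr2, Ifnar1, Ifnar2, Stat2, Irf8, Irf9, Gbp2, Gbp4, Gbp7, Iigp1 and Irgm1. Some genes that this rule names are not reported here. H2-M2, H2-Ea-ps, March1, Ms4a1, Pax5, Cd209a, Siglech, Adgre1 and Cd8a had no matching symbol. Coordinates are those of GENCODE M21. Mice of a genotype are taken as separate animals; p-values measure the spread between these libraries. The replicate numbers were checked as a pairing and were not used as a block. Alternatives were the scaling, pseudocount, filter, variance model, voom on recovered fragments, the replicate block and leaving out libraries. Depth limits low genes: 3 fragments per kilobase correspond to 0.0514 to 0.0780 FPKM, for counting error only.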

Additional observations from a re-analysis of the deposited data

How the results depend on the processing

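Against 1154 genes called, 191 were called with the replicate block, 47 with the close library pairs averaged, 8108 without library 2 of Znf143 f/f and library 1 of Znf143 -/-, and 223 to 2280 when 1 library was left out. With FPKM as deposited, 63.5% of 833 calls were higher in Znf143 -/- against 50.1%, and the median of all genes shifted to 0.11 (log2). Averaging the close pairs and leaving out both libraries that stood apart were chosen after seeing the data. Class II members called were 2 with voom on recovered fragments (H2-Ab1 and Cd74, adjusted p = 0.0452 and 0.0434, beside 7.27% of all genes). They were 4 without both libraries that stood apart, 0 with the close pairs averaged, and 0 to 3 with 1 library left out. Class I members called were 1 (Tap1, adjusted p = 0.0468) without both libraries. The class II median was 1.27 without both and 0.63 to 1.05 with 1 left out. Signs reversed for H2-K1 (0.029) and B2m (0.031) as deposited, for Ciita (0.014) without both libraries, and for H2-D1 (-0.051 without library 2 of Znf143 -/- and -0.069 without library 2 of Znf143 f/f, within a range of -0.069 to 0.093 when 1 library was left out); none of these values was called. H2-Aa, H2-Ab1, H2-Eb1 and Cd74 kept their direction in all 17 alternatives, with adjusted p values of 0.000704 to 0.9498, 0.00125 to 0.489, 0.000482 to 0.620 and 0.000410 to 0.477. Hfe and H2-DMb2 lost their call in 6 of 17 alternatives each (the replicate block, adjusted p = 0.0583 and 0.0608; the close pairs averaged, 0.227 and 0.242; and 4 of the 6 choices that leave out 1 library), and Ctss and Lgmn in none. Same-numbered libraries correlated at -0.0952, -0.0884 and 0.0353 in their deviations from the group means, which does not show that the numbers pair the mice; the block left both classes with 0 members called. Ciita was not testable at a mean of at least 1 FPKM. With 3 libraries per genotype, 2 of them close to each other in each, the precision of the class II differences is limited by the spread between libraries rather than by fragments, except for Ciita.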
